A study of Mus musculus with 8 samples.

Results

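The genes described here carry iron into, within and out of cells: Trf, Tfrc, Tfr2, Hfe, Steap3, Slc11a2, Fth1, Slc40a1, Cp and Hamp. They were read in whole lungs of newborn mice on 8 single-dye (Cy3) Agilent arrays, 4 from pups labelled Fgf10 +/- and 4 from pups labelled wild-type. The strain was C57Bl/6J, and both groups were kept in 85% oxygen in a chamber from postnatal day 0 to day 3, so there is no room-air comparison. The sample titles call the first group TG, its genotype label reads Fgf10 +/-, and the allele itself is not described in the sources used here. The design text calls the 4 samples of each group independent but ties them to no litters, so errors measure the spread between these samples.

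Members were found by gene symbol, and the array feature with the highest mean over all 8 arrays stood for each gene. The platform annotation named 9 of the 10 directly, and Tfr2, listed there under an older symbol, was found through its accession. All 10 were among the 17234 genes tested, each with a mean above the filter level of 2.76 on the log2 scale. These genes were chosen with earlier results of the same Fgf10 +/- against wild-type contrast known. Their differences are therefore given as a description, with the standard error (SE) of the fit across all genes, and no p-value is attached to them. A gene is called here where limma's Benjamini-Hochberg adjusted p over all 17234 genes was below 0.05.

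Iron circulates bound to transferrin, which the transferrin receptor brings into the cell by endocytosis. In the endosome the iron is reduced and passed to the cytosol by a divalent metal transporter, where ferritin stores what is not used. Ferroportin exports iron, helped by copper ferroxidases such as ceruloplasmin, and the liver hormone hepcidin removes ferroportin from the cell surface. In the lung, epithelium and alveolar macrophages take up and store iron, which limits the radicals that free iron forms with oxygen. When cells are short of iron, iron regulatory proteins stabilise the Tfrc transcript and hold back the translation of ferritin.

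A stretch before an annotated start of each transferrin receptor gene is shown because their transcripts differed in opposite directions between the groups. Each line gives 250 bases before an annotated start on the plus strand, from RefSeq (GRCm38.p6). Capitals mark the letters ACGTG, a form of the core read by hypoxia-inducible factors. The starts shown are among those with these letters before them. The form GCGTG was neither searched nor marked, so unmarked letters do not mean that the core is absent. The region for Tfrc is chr16:32608872-32609121, before the second of its 2 annotated starts, and that for Tfr2 is chr5:137569590-137569839, before the first of its 3. The Tfrc gene is annotated from 32608896, so most of its region lies within the gene, and the marked letters lie at that position. Tfr2 is annotated from 137569822, near the end of its region.
Tfrc: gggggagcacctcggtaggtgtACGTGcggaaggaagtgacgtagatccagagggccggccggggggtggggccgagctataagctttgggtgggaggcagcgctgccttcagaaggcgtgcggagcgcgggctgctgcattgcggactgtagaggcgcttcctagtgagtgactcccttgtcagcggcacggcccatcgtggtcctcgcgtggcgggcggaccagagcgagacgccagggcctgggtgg
Tfr2: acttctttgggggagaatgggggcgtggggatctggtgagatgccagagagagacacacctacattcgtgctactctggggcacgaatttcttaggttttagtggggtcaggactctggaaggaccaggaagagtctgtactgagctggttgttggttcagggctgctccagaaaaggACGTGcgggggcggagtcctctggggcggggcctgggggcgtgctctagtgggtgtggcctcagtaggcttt

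The marked letters begin 228 bases before the second Tfrc start and 72 bases before the first Tfr2 start. Searched on both strands, ACGTG stood before 1 of the 2 starts of Tfrc and before 2 of the 3 starts of Tfr2, against 16.6% of 32851 annotated starts. It stood before no annotated start of Hfe, Steap3, Fth1, Cp or Hamp, and the longer form CACGTG, which contains it, before none of these 7 genes. GATA and GGCGCC were searched as well. GATA stood before 1 of the 2 starts of Tfrc and 2 of the 3 of Tfr2, against 53.6% of annotated starts. GGCGCC stood before 1 of the 2 starts of Tfrc and no start of Tfr2, against 9.59%. Whether any of these letters bear on either transcript was not tested. Promoters of Trf, Slc11a2 and Slc40a1 were not analysed here.

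The labels were checked on Fgf10 and on lung genes. Fgf10 read 8.04 ± 0.20 in Fgf10 +/- lungs and 7.81 ± 0.28 in wild-type lungs (log2 intensity of its brightest feature, mean ± SD, n = 4 each), and all 10 of its features had a higher mean in Fgf10 +/- lungs. It is not known which part of the gene the allele removes or where the features lie, so Fgf10 does not check the labels. Fgf10 +/- therefore stands throughout for the arrays labelled so, and each direction rests on that label. The lung genes Sftpc and Scgb1a1 were at or near the top of the scale on every array. Wild-type array 2 stood apart in some hepatocyte genes. The liver glycoprotein gene Ahsg read 8.59 there, against 2.80 to 5.58 in Fgf10 +/- arrays and 3.07 to 5.19 in other wild-type arrays. Not all of the hepatocyte list was raised in that array. Fgb read 3.14 there and 4.09 in wild-type array 4, and Tat, at 4.06, lay within the range of the other arrays. In acute phase genes Fgf10 +/- array 2 (list mean 7.46) and wild-type array 1 (7.98) stood apart.

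The transferrin receptor genes differed in opposite directions. The 2 genes of transferrin delivery, Trf and Tfrc, were higher in Fgf10 +/- lungs, by 0.40 and 0.86 on the log2 scale, while the second transferrin receptor gene, Tfr2, was lower by 1.93. The exporter Slc40a1 and the importer Slc11a2 were lower as well, and storage, ferroxidase, reductase and hormone genes differed less. Of the 10 genes 2 were called, Tfr2 and Slc40a1, both lower, and 8 were not. Over all genes tested 0.795% were called, 0.226% higher and 0.569% lower. The groups did not overlap in 3 genes, Tfrc on the higher side and Tfr2 and Slc40a1 on the lower side. Of all genes 6.64% had groups without overlap, 3.13% higher and 3.51% lower. Since the members were chosen on this contrast, nothing is read from these shares.

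**Figure D1:**
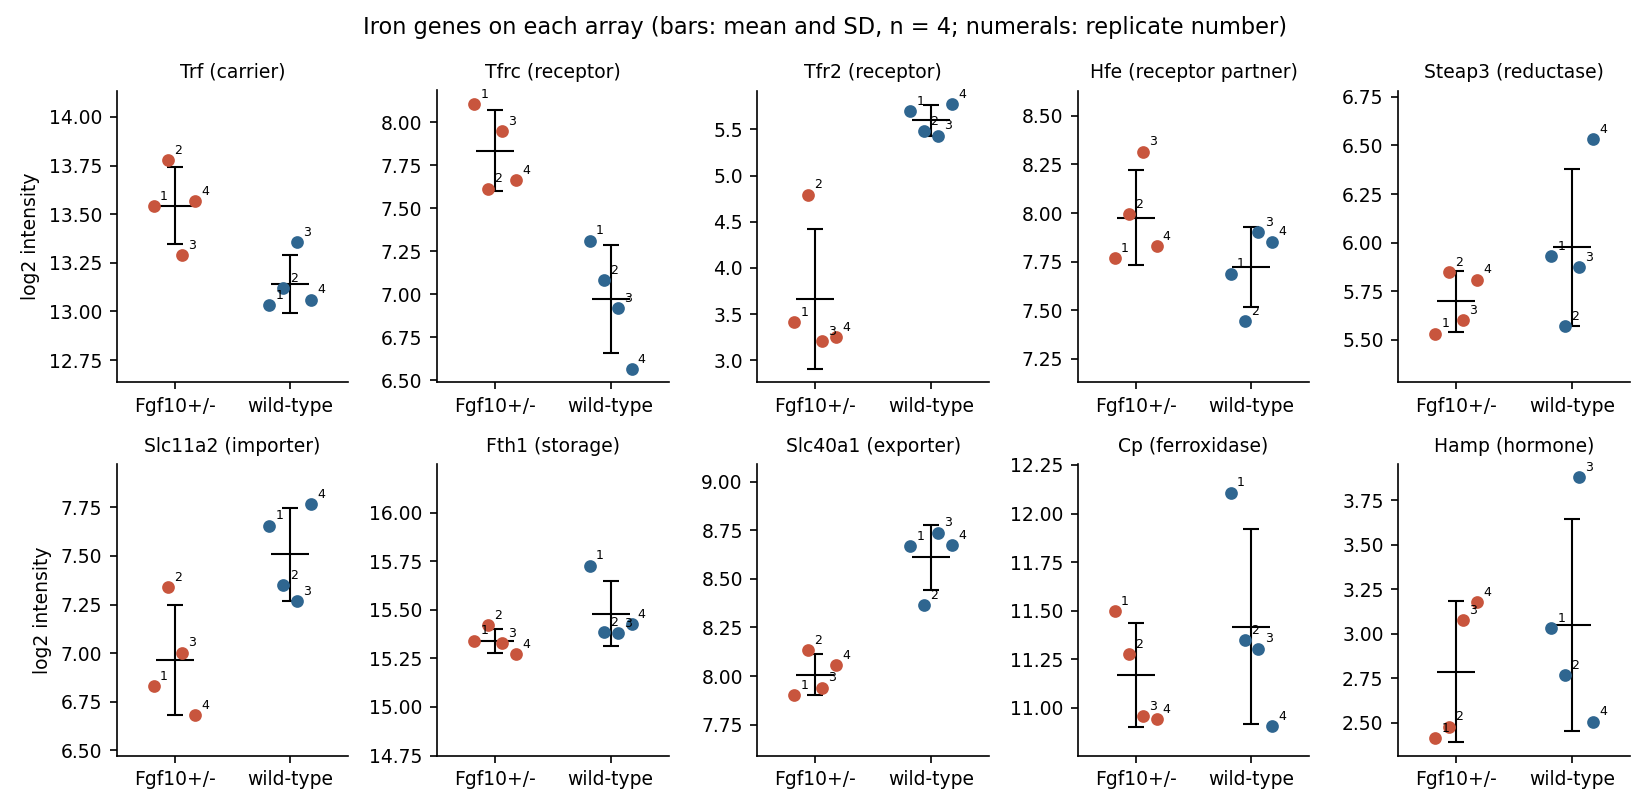
Log2 intensity (vertical axis) of the 10 iron genes on each of 4 Fgf10 +/- arrays (red) and 4 wild-type arrays (blue), with the replicate number beside each point and bars for mean and SD. Each panel has its own scale. The groups lie apart for Tfrc, Tfr2 and Slc40a1 and overlap for the other 7 genes.

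Trf encodes transferrin, the plasma carrier of ferric iron, which many tissues besides the liver also make. It read 13.54, 13.78, 13.29 and 13.57 in Fgf10 +/- arrays 1 to 4, against 13.03, 13.12, 13.36 and 13.06 in wild-type arrays 1 to 4 (log2 intensity). The groups overlapped only through Fgf10 +/- array 3, which lay below wild-type array 3. The difference was 0.40 (SE 0.10), and the second Trf feature gave 0.39. Transferrin is a major product of hepatocytes, and the hepatocyte list is given here for that reason. Over its 8 of 10 measured genes its mean level ran from 3.87 to 4.44 in Fgf10 +/- arrays and from 3.85 to 5.90 in wild-type arrays, the highest being wild-type array 2. Trf in that array, at 13.12, lay between the other wild-type values, and the difference was 0.39 without it. The part of hepatocytes in the Trf difference was not tested.

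Tfrc encodes transferrin receptor 1, through which most cells take up transferrin-bound iron, and which dividing cells and erythroid precursors carry at high density. It read 8.11, 7.61, 7.95 and 7.66 in Fgf10 +/- arrays, against 7.31, 7.08, 6.92 and 6.57 in wild-type arrays. Every Fgf10 +/- array lay above every wild-type array, and the lowest of all was wild-type array 4. The difference was 0.86 (SE 0.19, 95% CI 0.46 to 1.26), 1.82-fold higher in Fgf10 +/- lungs. Tfrc was not called, and it was called without wild-type array 1, where the difference was 0.98.

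The array carries 12 Tfrc features, so the reading does not rest on a single spot. Of these, 11 had a higher mean in Fgf10 +/- lungs, by 0.46 to 0.89, and 9 had groups that lay apart. The remaining feature was the dimmest, with a mean of 3.12 near the filter level, and differed by -0.15. Features of a gene read the same RNA and cannot be sorted here into repeated spots and different probes, so they are not replicates of the difference.

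**Figure D2:**
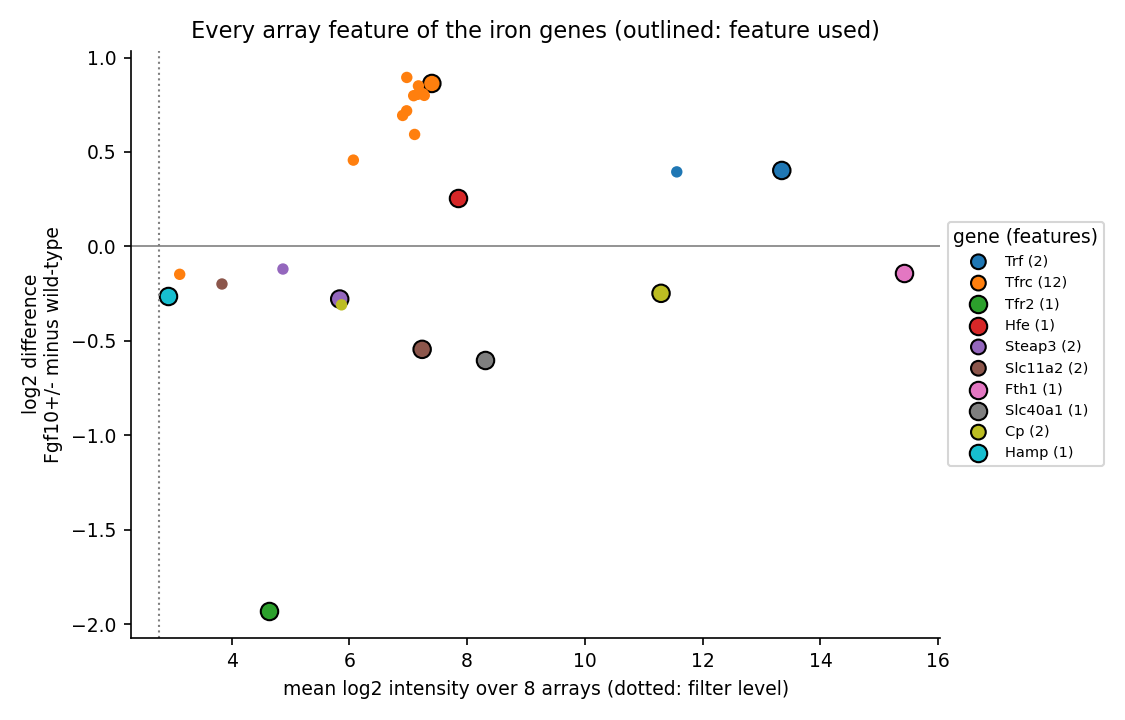
Difference between the group means (vertical axis, log2, Fgf10 +/- minus wild-type) for every array feature of the 10 genes, against its mean log2 intensity over the 8 arrays (horizontal axis). Outlined points are the features used and the dotted line is the filter level of 2.76. The 11 brighter Tfrc features lie together at 0.46 to 0.89.

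Tfr2 encodes transferrin receptor 2, which is known from hepatocytes and erythroid precursors, where it senses transferrin-bound iron. It read 3.41, 4.79, 3.21 and 3.25 in Fgf10 +/- arrays, against 5.69, 5.48, 5.43 and 5.78 in wild-type arrays. The wild-type arrays stayed within a narrow band, and Fgf10 +/- array 2 stood between them and the other 3 arrays of its group. The difference was -1.93 (SE 0.36, 95% CI -2.70 to -1.16), 3.81-fold lower in Fgf10 +/- lungs, the largest among the 10 genes in either direction. The array has 1 Tfr2 feature, and whether readings near 3 lay above background is unknown, because the table holds no background level.

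Marker lists of the cell types known to carry Tfr2 overlapped between the groups. The erythroid list, with 9 of 13 genes measured, had a mean level of 7.98 to 8.70 in Fgf10 +/- arrays and 7.79 to 8.44 in wild-type arrays. All 9 of its genes had a higher mean in Fgf10 +/- lungs, and none was called. In the hepatocyte list Ttr and Cps1 lay below the filter, and Tfr2 in wild-type array 2, where that list was highest, was 5.48, within the range of the other wild-type arrays. Without that array the Tfr2 difference was -1.97, no longer called. Without array 2 labelled Fgf10 +/- it was -2.31. The part of erythroid cells and hepatocytes in the Tfr2 difference was not tested.

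Hfe encodes an MHC class I-like protein that binds transferrin receptor 1 and takes part in iron sensing. It read 7.77, 7.99, 8.32 and 7.83 in Fgf10 +/- arrays and 7.69, 7.44, 7.90 and 7.85 in wild-type arrays, and the groups overlapped. The difference was 0.25 (SE 0.16). Hfe was the third and last of the 10 genes with a positive difference.

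Steap3 and Slc11a2 act in the endosome, the first as the ferrireductase and the second as the divalent metal transporter (DMT1) that moves the reduced iron into the cytosol. Slc11a2 read 6.83, 7.34, 7.00 and 6.68 in Fgf10 +/- arrays, against 7.66, 7.35, 7.27 and 7.76 in wild-type arrays. Fgf10 +/- array 2 alone reached the wild-type range, where it lay just above wild-type array 3. The Slc11a2 difference was -0.55 (SE 0.19), and its dimmer second feature gave -0.20. Steap3 read 5.53, 5.85, 5.60 and 5.81 in Fgf10 +/- arrays and 5.93, 5.57, 5.87 and 6.53 in wild-type arrays. The groups overlapped and wild-type array 4 stood highest, with a Steap3 difference of -0.28 (SE 0.24) that was -0.09 without that array.

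Slc40a1 encodes ferroportin, the exporter of cellular iron, which is abundant in macrophages that recycle iron. It read 7.90, 8.13, 7.94 and 8.06 in Fgf10 +/- arrays, against 8.67, 8.36, 8.74 and 8.67 in wild-type arrays. Every Fgf10 +/- array lay below every wild-type array, and the narrowest gap was between Fgf10 +/- array 2 and wild-type array 2. The difference was -0.60 (SE 0.13, 95% CI -0.88 to -0.33), 1.52-fold lower in Fgf10 +/- lungs.

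Macrophage markers are given here for that reason, and their mean levels overlapped between the groups only through Fgf10 +/- array 4. Over 11 of 12 measured markers their mean level was 8.11 to 8.37 in Fgf10 +/- arrays and 8.33 to 8.72 in wild-type arrays, and 7 of the 11 were lower in Fgf10 +/- lungs, none of them called. Among the lower ones C1qa, C1qb and C1qc differed by -0.61, -0.88 and -0.59, and Csf1r, at -0.25, had groups that lay apart. The other 4 markers were higher, Siglecf most, by 0.56. Cd163, a macrophage receptor for hemoglobin, lay below the filter level. The part of macrophages in the Slc40a1 difference was not tested, and in whole lung fewer cells of a type and less RNA per cell cannot be told apart.

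Genes of dividing cells differed most among the marker lists. Over 6 of 8 measured genes their mean level was 6.74 to 7.47 in Fgf10 +/- arrays and 7.84 to 8.67 in wild-type arrays. All 6 were lower in Fgf10 +/- lungs and 4 were called lower. Tfrc, which is known to be high in dividing cells, was thus higher in the arrays where genes of division were lower, while Tfr2, Slc40a1 and Slc11a2 were lower with them. The mean level of alveolar type 2 genes was higher, at 13.34 to 13.39 in Fgf10 +/- arrays and 13.02 to 13.20 in wild-type arrays. Of these 8 genes 4 were called, Abca3, Lamp3, Slc34a2 and Etv5, all higher. Sftpb (0.14) and Sftpa1 (0.10) differed less, Sftpc was at the top of the scale, and Lyz2 was lower (-0.25). The mean level of club and ciliated cell genes was 11.90 to 12.11 in Fgf10 +/- arrays and 11.60 to 11.96 in wild-type arrays, and that of fibroblast genes was 12.01 to 12.35 in Fgf10 +/- arrays and 12.20 to 12.58 in wild-type arrays. Neutrophil, alveolar type 1 and endothelial genes overlapped between the groups as well, and none of these 5 lists held a called gene. Heart muscle genes, of which 1 was called higher, ran from 10.34 to 10.57 in Fgf10 +/- arrays and from 9.99 to 11.67 in wild-type arrays, highest in wild-type array 4. The part of these cell types in the iron genes' differences was not tested.

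**Figure D3:**
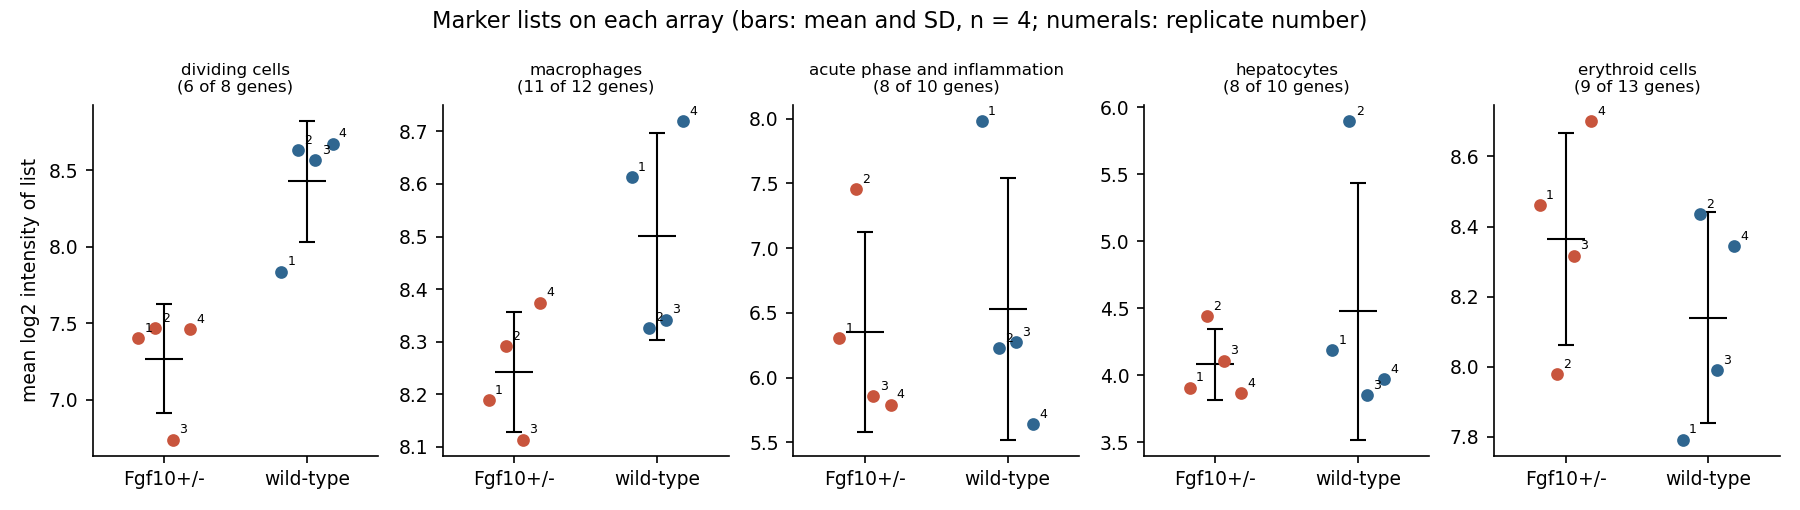
Mean log2 intensity (vertical axis) of 5 marker lists on each of 4 Fgf10 +/- arrays (red) and 4 wild-type arrays (blue), with replicate numbers and bars for mean and SD. Each panel has its own scale. Dividing cell genes lie apart, while erythroid, hepatocyte and acute phase genes overlap between the groups. Macrophage genes overlap only through Fgf10 +/- array 4.

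Fth1 encodes the ferritin heavy chain, the ferroxidase subunit of the iron store, and lay close to the top of the scale. It read 15.34, 15.42, 15.33 and 15.27 in Fgf10 +/- arrays and 15.73, 15.39, 15.38 and 15.43 in wild-type arrays. Only wild-type array 1 stood apart, above all the others. The Fth1 difference was -0.14 (SE 0.08), and -0.06 without that array.

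Cp encodes ceruloplasmin, a copper ferroxidase that works with ferroportin and rises in the acute phase response. It read 11.50, 11.28, 10.96 and 10.94 in Fgf10 +/- arrays and 12.11, 11.35, 11.31 and 10.91 in wild-type arrays, with wild-type arrays at both ends of the range. The difference was -0.25 (SE 0.20), and -0.02 without wild-type array 1. In acute phase and inflammation genes, 8 of 10 measured, the mean level ran from 5.79 to 7.46 in Fgf10 +/- arrays and from 5.64 to 7.98 in wild-type arrays. Wild-type array 1 was the highest on this list as well as in Cp and Fth1. Fgf10 +/- array 2 was the highest of its group on this list, as it was in Tfr2, Slc40a1 and 4 more of the 10 genes, and the other 3 arrays of its group lay at 5.79 to 6.30. The part of acute phase genes in these differences was not tested.

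Hamp encodes hepcidin, which is made chiefly by the liver. It read 2.41, 2.48, 3.07 and 3.18 in Fgf10 +/- arrays and 3.03, 2.77, 3.88 and 2.51 in wild-type arrays, around the filter level of 2.76. The groups overlapped throughout, with a difference of -0.26 (SE 0.41) that was 0.02 without wild-type array 3. Wild-type array 2, where the hepatocyte list was highest, was not high in Hamp. No level of hepcidin transcript in the lung can be read from these values, since their background is unknown.

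**Figure D4:**
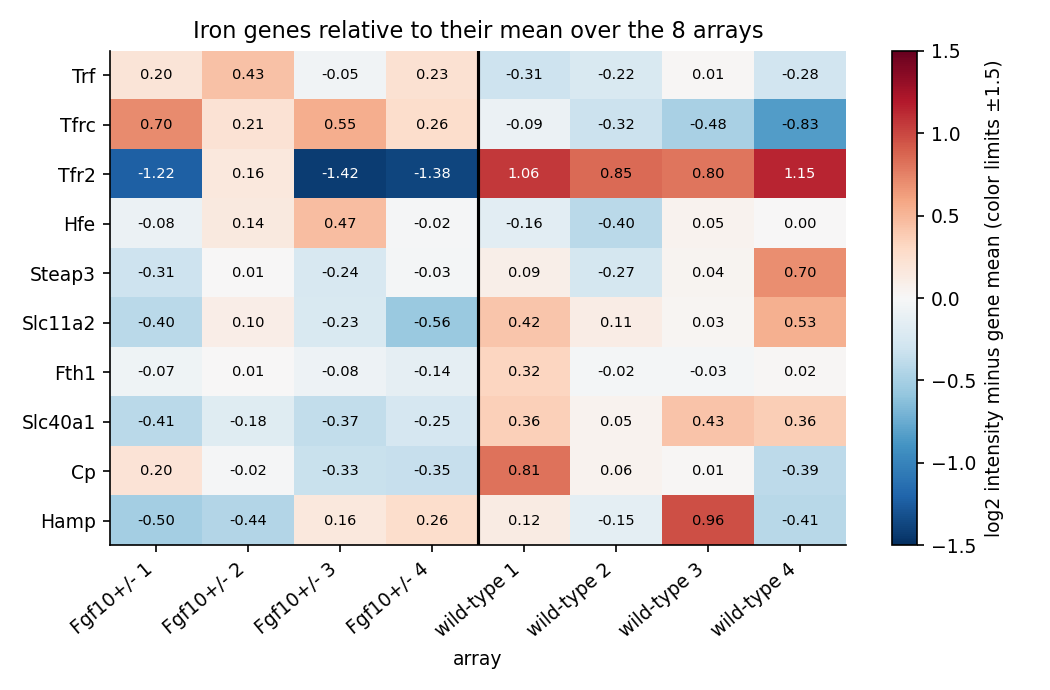
Log2 intensity minus the gene's mean over the 8 arrays for the 10 iron genes (rows) on 4 Fgf10 +/- arrays and 4 wild-type arrays (columns), with color limits at ±1.5. Tfrc is above and Slc40a1 below its mean on every Fgf10 +/- array, and Tfr2 is below its mean on 3 of them.

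Some arrays had the highest or lowest value of their group in several genes. Fgf10 +/- array 2 had the highest value of its group in 6 of the 10 genes, Trf, Tfr2, Steap3, Slc11a2, Fth1 and Slc40a1, and the lowest in the Tfrc feature used, though not in most of the other Tfrc features. In the wild-type group no array stood out in this way. Wild-type arrays 1, 3 and 4 were highest in 3, 4 and 3 genes, and arrays 1 to 4 were lowest in 1, 3, 3 and 3. Wild-type array 4 was highest of its group in Tfr2, Steap3 and Slc11a2 and lowest in Tfrc, Cp and Hamp. The SD between the 4 arrays of a group ran from 0.06 for Fth1 to 0.76 for Tfr2, both in Fgf10 +/- lungs.

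Across the 10 genes the median difference was -0.25, beside 0.01 over all 17234 genes. The median size of the difference, regardless of direction, was 0.34 among the 10 genes and 0.16 over all genes. Because the members were chosen on this contrast, nothing is read from these medians either.

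Genes with a profile like that of the most variable members were found by the root mean square difference between profiles over the 8 arrays, each centred on its mean. Closest to Tfr2 were Lrtm2 (0.43), Pimreg (0.47), Prc1 (0.50) and Syn2 (0.50), where the median gene was at 1.11. Pimreg and Prc1 act in mitosis. Lrtm2, the closest, read 2.18 to 2.54 in Fgf10 +/- arrays, below the filter level, and 3.92 to 4.63 in wild-type arrays. The profiles include the group difference, so genes alike in profile share its direction. A link between Tfr2 and division was not tested. Closest to Tfrc were Ros1 (0.14), Cpb2 (0.18), Ccr6 (0.18) and Prp2 (0.18), with a median gene at 0.55. Ros1 is a receptor tyrosine kinase and Ccr6 a chemokine receptor. For Hamp, near the filter level, the closest were Nanos1, Il24, Fam3b and Qprt, at 0.11 to 0.18 with a median of 0.52.

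The wider iron pathway was read from 7 lists holding 70 other genes, of which 61 were tested. None of the 61 was called by limma, beside 0.795% of all genes. At an unadjusted p below 0.05 there were 5, 2 higher and 3 lower, which is 8.20% of the 61 beside 11.2% of all genes. The median difference was 0.02, and its median size of 0.15 was close to the 0.16 of all genes.

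Hepcidin control held the gene nearest to the threshold. Neo1, which encodes neogenin, a partner of hemojuvelin in hepcidin control, read 8.87, 9.04, 9.30 and 9.12 in Fgf10 +/- arrays and 9.36, 9.70, 9.65 and 10.05 in wild-type arrays. These groups lay apart, with a difference of -0.61 (SE 0.14, limma adjusted p = 0.0711). Bmp2, a ligand that induces hepcidin, had 0.50 (SE 0.19, limma adjusted p = 0.313). Erfe, the erythroid hormone that lowers hepcidin, had -0.86 (SE 0.37, limma adjusted p = 0.398) at levels of 2.66 to 3.44 in Fgf10 +/- arrays and 3.17 to 4.39 in wild-type arrays. None of the 14 tested genes of this list was called, and Hjv and Tmprss6 lay below the filter.

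Among 9 tested genes of iron transport and reduction, the ferrireductase Cybrd1 had 0.47 (SE 0.18, limma adjusted p = 0.337). Heph, which encodes the ferroxidase hephaestin, had -0.31 (SE 0.17), and the metal transporter Slc39a8 had -0.15 (SE 0.10). None of these 3 was called. The list of scavengers held Lrp1, a receptor for heme-hemopexin complexes among many ligands, at -0.36 (SE 0.09, limma adjusted p = 0.104) with groups that lay apart. Haptoglobin (Hp) had 0.24 (SE 0.15) and hemopexin (Hpx) 0.38 (SE 0.34), and none of the 7 tested scavengers was called.

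In the storage list all 4 tested genes had negative signs of at most 0.11 in size, with Ncoa4, which delivers ferritin to lysosomes, at -0.11 (SE 0.13), the iron chaperones Pcbp1 at -0.06 (SE 0.07) and Pcbp2 at -0.07 (SE 0.07). Of the iron regulatory proteins, Aco1 had -0.58 (SE 0.44). Its levels were 2.63 to 4.45 in Fgf10 +/- arrays and 3.26 to 4.64 in wild-type arrays, the lowest near the filter level. Ireb2 had 0.18 (SE 0.29), and Fbxl5, which marks Ireb2 for degradation, had 0.03 (SE 0.18). Among 15 heme genes the heme exporter Flvcr1 had 0.40 (SE 0.20), Alad 0.24 (SE 0.13) and Blvrb -0.19 (SE 0.10). Glrx5, which acts in iron-sulfur cluster assembly, had 0.15 (SE 0.08), Slc25a28 0.12 (SE 0.11) and Iscu 0.08 (SE 0.08), all within 9 tested mitochondrial genes that spanned -0.08 to 0.18. No gene of these 4 lists was called.

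**Figure D5:**
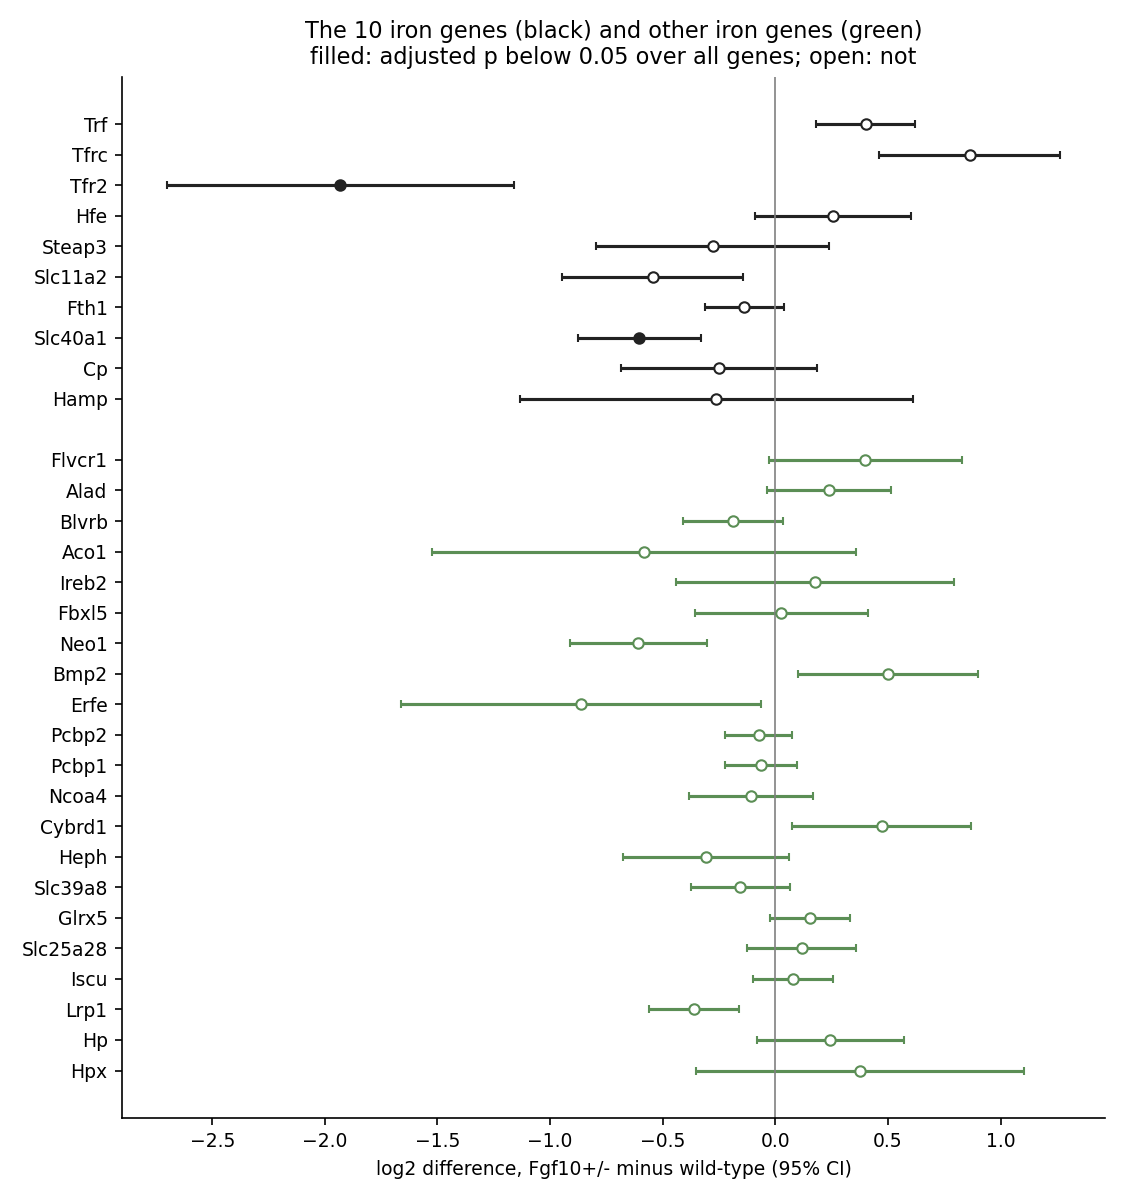
Log2 difference between Fgf10 +/- and wild-type lungs with 95% confidence intervals (horizontal axis) for the 10 iron genes (black) and the 3 genes with the smallest unadjusted p of each of 7 other iron gene lists (green). Filled points are called over all 17234 genes. Tfr2, at -1.93, and Slc40a1, at -0.60, are the filled ones.

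The calls changed when single arrays were left out. Tfr2 kept its call in 3 of the 8 fits with 1 array left out. It lost the call without Fgf10 +/- array 1 (-1.85), array 3 (-1.78) or array 4 (-1.79) and without wild-type array 2 (-1.97) or array 4 (-1.87). Slc40a1 kept its call in 0 of these 8 fits, while its difference stayed between -0.69 and -0.56. Over all genes, 137 were called on 8 arrays. With Fgf10 +/- arrays 1, 2, 3 and 4 left out in turn there were 67, 86, 62 and 66. With wild-type arrays 1, 2, 3 and 4 left out in turn there were 173, 34, 142 and 62.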

How the data were processed

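The deposited table gives log2 intensities of 62976 features on 8 arrays. No further normalization was applied. Per the submitters' processing notes limma was used. Its version, its steps and the background correction are not given in the sources used here. Arrays have no read depth, and their number limits the precision. The 189 features with a missing value were left out.

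Of 31465 named features, 29050 were matched by accession to RefSeq (GRCm38.p6) and 2933 symbols were updated. Features with a mean below the 30th percentile (2.76) were removed, and the brightest feature stood for each of 17234 genes. Genes were compared with limma 3.58.1 in R 4.3.3 (lmFit, eBayes with a variance trend, two-sided, Fgf10 +/- minus wild-type), with Benjamini-Hochberg adjustment, and the fit was tested on simulated data.

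The members, the 7 pathway lists and the 12 marker lists were chosen with earlier results of these data known. Named besides the members are the 3 genes with the smallest unadjusted p of each pathway list, the 4 genes most like each of the 3 most variable members, and markers needed for a statement. Alternatives were other normalizations, filters and feature summaries, no variance trend, array weights, a replicate block and arrays left out. Replicate numbers are shared by the groups, but deviations of same-numbered arrays correlated at only -0.06 to 0.07, so they were not treated as pairs. Gene lists are described by counts and medians, with no test of a list.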

Additional observations from a re-analysis of the deposited data

Results flagged for a closer look

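Tfr2 read 4.79 in Fgf10 +/- array 2, against 3.21 to 3.41 in the other 3 arrays of its group, so 1 array lay far from the rest. Fth1 read 15.73 in wild-type array 1, against 15.38 to 15.43 in arrays 2 to 4 of that group. Heph, the hephaestin gene, read 7.65 in Fgf10 +/- array 3, against 8.12 to 8.16 in the other arrays of its group. In each, the gap to the nearest array exceeded the 95% limit of Dixon's test, taking 0.87, 0.87 and 0.91 of the group's range. These were 3 of 62 groups of 4 examined in 31 genes, and chance alone gives such gaps in about 5% of groups.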

How the results depend on the processing

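The 10 iron genes held 2 called genes, 1 without the filter and 1 with a replicate block (each time Tfr2), and 0 without the variance trend, where limma called 1 gene in all. The replicate block left 116 genes called over all genes, and Slc40a1 was then not called. Same-numbered arrays did not deviate together, so the numbers were not taken as a pairing. Tfrc joined Tfr2 and Slc40a1 with a filter at the 50th percentile and with array weights, which gave 3 called members each. With 1 array left out in turn, 0 to 2 members, 34 to 173 of all genes and 0 to 1 of the other iron genes were called, the 1 being Neo1 without wild-type array 1. In 2 settings chosen after seeing the data, leaving out wild-type arrays 1 and 2 gave 0 called members and 73 genes, and leaving out wild-type array 1 and Fgf10 +/- array 2 gave 2 called members, Tfrc and Tfr2, and 1 other iron gene, Neo1. The causes of these shifts were not tested. Under 16 alternatives (8 other settings and 8 fits with 1 array left out) 9 of the 10 genes kept the sign of their difference, and Hamp kept it in 14 of the 15 that measured it, the exception being 0.02 without wild-type array 3. The Cp difference was 0.06 without wild-type arrays 1 and 2. Features near the filter level, Hamp and Tfr2 in 3 arrays among them, are limited by an unknown background.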

Other observations

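Hmox1, which encodes the inducible heme oxygenase that frees iron from heme, was picked out after its values were seen. It read 9.04, 10.18, 10.04 and 9.85 in Fgf10 +/- arrays and 9.86, 6.02, 10.65 and 10.01 in wild-type arrays, so wild-type array 2 lay far below the other 7 arrays. Its dimmer feature was lowest in the same array, at 3.95, against 4.50 to 5.51 in Fgf10 +/- arrays and 5.28 to 5.34 in the other wild-type arrays. The same array had the highest Ahsg and Serpina1a, at 8.59 and 7.38. The difference of Hmox1 over all arrays was 0.64 (SE 0.73) and was not called.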
